A study of Mus musculus with 3 samples.

Results

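The 10 genes described here encode proteins by which T cells sense extracellular ATP, NAD and adenosine or take part in their turnover. They were chosen by symbol (P2rx7, P2rx4, Art2b, Cd38, Entpd1, Nt5e, Adora2a, Ada, Pnp and Dpp4), and all 10 were found among the 55536 annotated genes of the deposited tables. Total RNA was sequenced in 3 libraries of splenic T cells, labelled m.CD3, of strain B6CASTF1/J from virgin adult females 66 days old, the first generation of a cross in which C57BL/6 was the maternal and CAST/EiJ the paternal strain. Every library received 300 ng of RNA and an ERCC spike-in mix, and all 3 fall into 1 group, named replicates 1, 2 and 3. The 3 biosample records of the labels share 1 donor record, and nothing says that they are separate mice, so SDs and p-values cover only how these samples differ, possibly for technical reasons. With no treatment, the comparisons are between genes and transcripts within a library and between the libraries.

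Cells release ATP through channels or on damage, and T cells detect it with P2X receptors, which are ATP-gated cation channels. On mouse T cells the P2X7 receptor is also gated in another way: the surface enzyme ART2.2, the product of Art2b, attaches ADP-ribose from extracellular NAD to the channel, whereas CD38 consumes the same NAD. CD39 (Entpd1) and CD73 (Nt5e) degrade ATP stepwise to adenosine, which raises cAMP through the receptor encoded by Adora2a. Adenosine deaminase (Ada) and purine nucleoside phosphorylase (Pnp) then carry adenosine through inosine to hypoxanthine.

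The libraries held 16.88, 14.99 and 16.20 M estimated counts on annotated genes. TPM, used for every level, is an abundance that scales the reads of a transcript by its effective length and then all transcripts of a library to the same total. A second set of transcript values was deposited for the same reads and is called the second quantification. The T-cell identity of the libraries was checked with 13 core genes, all at 1 TPM or more in every library. Trbc2, a T-cell receptor beta constant region, was the highest of them at 649.6 ± 43.3 TPM (SD, n = 3). Against a T-cell sum of 3205 to 3476 TPM, the summed TPM of other marker lists ran from 17.4 to 34.0 for 13 B-cell genes, 3.19 to 4.80 for 6 plasma-cell genes, 34.8 to 44.6 for 13 monocyte and macrophage genes, 3.57 to 6.44 for 8 dendritic-cell genes and 39.1 to 46.4 for 8 natural killer genes. They ran from 6.49 to 7.31 for 7 neutrophil genes, 43.8 to 98.1 for 8 erythroid genes, 3.90 to 6.59 for 7 platelet genes and 51.5 to 56.0 for 8 stromal and endothelial genes, the last almost all Pecam1. The highest genes of these lists were Ighd, Prdm1, Lyz2, Siglech, Prf1, S100a8, Hba-a1, Itga2b and Pecam1. Tnfrsf17 of plasma cells and Pdpn of stroma were listed at 0. Genes of regulatory T cells, which are part of the T-cell population, summed to 100.5 to 125.1 TPM, with Ctla4 the highest and Foxp3 at 8.55, 9.04 and 8.44 TPM in replicates 1 to 3.

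P2rx7 is shown first by its transcripts, because its first exon is where the annotated forms with a full C-terminus diverge. The gene (ENSMUSG00000029468.17) lies on the plus strand of chromosome 5 at chr5:122643911-122691432 on mm10 and has 8 annotated transcripts. P2rx7-203 has 13 exons and codes for 595 amino acids, counted as codons before the stop. P2rx7-208 replaces its exon 1 by another exon that lies in intron 1, joins the same exon 2 and codes for 592. A mouse variant with such a first exon, called P2X7k, is known as the form of T cells that responds most readily to ADP-ribosylation. The coding part of exon 1 of P2rx7-203 (125 bases, chr5:122644074-122644198) and all of exon 1 of P2rx7-208 (116 bases, chr5:122650424-122650539) are printed here from the annotation's transcript sequences, 5′ to 3′ on the plus strand, with the start codon in capitals.
P2rx7-203 exon 1: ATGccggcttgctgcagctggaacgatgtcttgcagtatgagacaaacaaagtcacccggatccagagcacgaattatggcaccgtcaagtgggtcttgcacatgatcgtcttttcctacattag
P2rx7-208 exon 1: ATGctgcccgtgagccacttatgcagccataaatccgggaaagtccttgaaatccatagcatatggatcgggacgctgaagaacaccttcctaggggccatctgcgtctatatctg

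The annotated transcripts also differ at the other end. P2rx7-203 and P2rx7-208 share the coding part of exon 13, 498 bases with the stop, which holds the long intracellular C-terminus that sets P2X7 apart from other P2X receptors. P2rx7-204 splices exon 12 to a point within exon 13 of P2rx7-203 (chr5:122683175), and P2rx7-201 splices it to a separate last exon. P2rx7-204 and P2rx7-201 stop soon after, at 431 and 442 codons. The end of the reading frame is shown for these transcripts, with the stop codon in capitals: the last 60 coding bases of P2rx7-203 (chr5:122681245-122681304), and the end of exon 12 joined to the coding part of the last exon for P2rx7-204 and P2rx7-201, which have 6 and 39 such bases.
P2rx7-203 end: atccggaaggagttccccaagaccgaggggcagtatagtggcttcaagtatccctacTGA
P2rx7-204 end: gttgtcaaaggccaagaagttccaaccTAG
P2rx7-201 end: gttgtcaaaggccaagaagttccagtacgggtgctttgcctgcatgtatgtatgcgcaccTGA

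**Figure D1:**
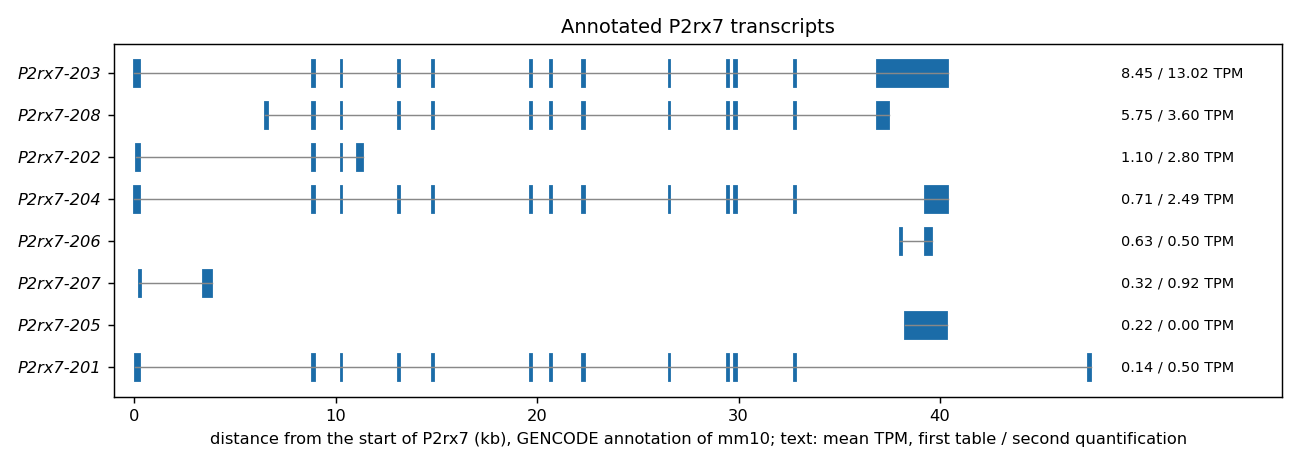
Exons (blue boxes, drawn at least 0.08 kb wide) of the 8 annotated P2rx7 transcripts against distance from the gene's start in kb, ordered by mean TPM in the first transcript table, with the mean TPM of 3 libraries in both quantifications beside each. P2rx7-208 starts inside intron 1 of P2rx7-203. The last exon of P2rx7-204 starts within exon 13 of P2rx7-203, and P2rx7-201 ends in a separate last exon.

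As a whole gene, P2rx7 stood at 18.6, 18.2 and 15.2 TPM in replicates 1, 2 and 3, a mean of 17.3 ± 1.88 TPM (SD, n = 3). These levels rested on 999, 877 and 808 estimated counts. Replicates 1 and 2 were close, and replicate 3 was the lowest. In the second quantification the gene was at 26.6, 22.1 and 22.8 TPM, with replicate 1 again the highest but replicate 2 the lowest. Of the protein-coding genes at 1 TPM or more in every library, 9851 in all, 58.3% had a lower mean than P2rx7. A microRNA gene, Mir8115, lies within the last exon of P2rx7-203 and was listed at 28.3, 0 and 17.0 TPM. Reads from it and from the exon cannot be told apart by position, and the deposited posterior SD of the P2rx7 count was at most 0.199% of that count.

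P2rx7-203 led the gene in all 3 libraries and in both quantifications. Its TPM was 9.19, 8.83 and 7.32 in the first transcript table, which was 48.7% ± 0.59 of the gene (SD, n = 3). In the second quantification it was at 14.55, 13.03 and 11.50 TPM, or 54.7% ± 4.31. By estimated counts, which favour the longer transcript, its share was 75.2%. P2rx7-208 followed in the first table at 5.50, 6.99 and 4.76 TPM, highest in replicate 2, and in the second quantification at 4.84, 3.87 and 2.09 TPM, highest in replicate 1. Its values in replicates 1 to 3 therefore fell in a different order in the 2 quantifications. The first table assigned P2rx7-208 163.6, 188.3 and 141.8 counts with posterior SDs of 24.7, 19.6 and 20.9.

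Of the TPM carried by P2rx7-203 and P2rx7-208 together, the form with the alternative first exon had 37.4%, 44.2% and 39.4% in the first table, a mean of 40.3% ± 3.47 (SD, n = 3). The second quantification gave 24.9%, 22.9% and 15.4%, a mean of 21.1% ± 5.06. The ranges of these shares do not overlap, so the choice of quantification moved the share by more than the libraries differed. Only the 116 bases of its own first exon distinguish P2rx7-208 from every other annotated entry, against 725 bases for P2rx7-203. In both sets of values P2rx7-203 had the larger share in every library. The annotation ends P2rx7-208 at chr5:122681373, whereas P2rx7-203 runs on to chr5:122684289. Reads from beyond the shorter end cannot be assigned to P2rx7-208, whichever first exon their RNA had. How far the split depends on these annotated ends was not tested.

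Transcripts with another last exon were minor. P2rx7-204 was at 0.77, 0.25 and 1.11 TPM in the first table and at 2.49, 2.21 and 2.76 TPM in the second quantification, and only 8 of its bases are in no other entry. P2rx7-201 was at 0.26, 0.17 and 0 TPM, and at 0.31, 0.46 and 0.73 TPM in the second quantification. Among the 4 transcripts with 13 exons, P2rx7-203 and P2rx7-208 hold the full coding part of exon 13. They carried 94.1% ± 2.98 of the TPM in the first table and 84.4% ± 4.25 in the second quantification (SD, n = 3). P2rx7-202, a truncated form of 153 codons, was at 1.07, 1.34 and 0.89 TPM, and at 3.05, 2.51 and 2.84 TPM in the second quantification. The noncoding entries P2rx7-205, P2rx7-206 and P2rx7-207 had means of 0.22, 0.63 and 0.32 TPM in the first table and 0, 0.50 and 0.92 TPM in the second quantification.

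**Figure D2:**
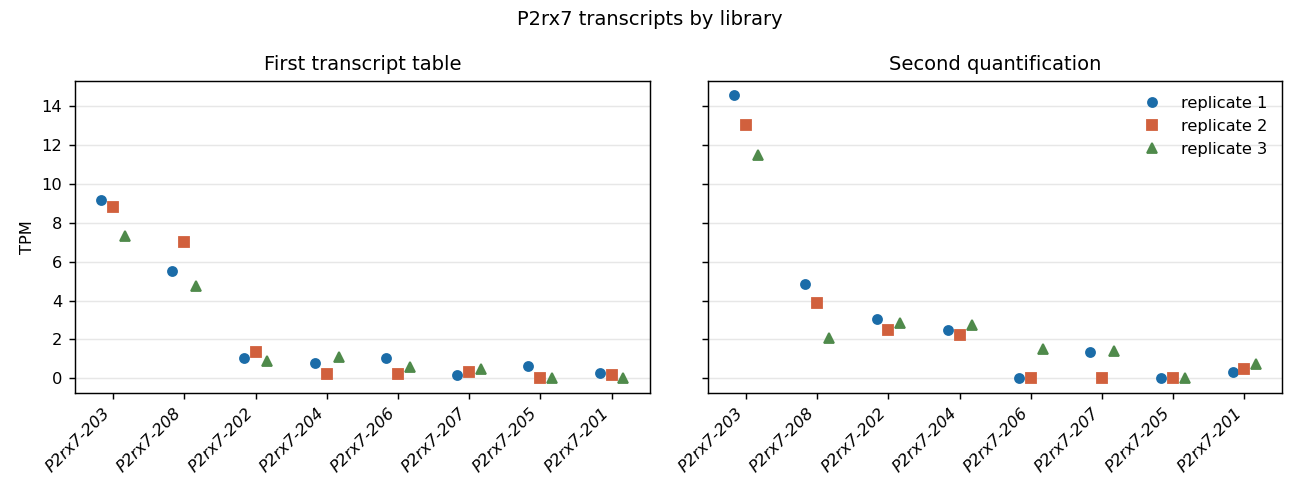
TPM of each P2rx7 transcript in replicates 1 (circles), 2 (squares) and 3 (triangles), in the first transcript table and in the second quantification. P2rx7-203 leads in every library, and P2rx7-208 lies between 4.76 and 6.99 TPM in the first table and between 2.09 and 4.84 TPM in the second quantification.

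P2rx4 encodes another ATP-gated channel, which resides largely in endosomes and lysosomes and at the cell surface. Its gene (ENSMUSG00000029470.15, plus strand, chr5:122707544-122729738) begins 16111 bases beyond the end of P2rx7. P2rx4 was at 17.9, 16.0 and 16.5 TPM, a mean of 16.8 ± 0.96 TPM (SD, n = 3), from 615, 564 and 625 estimated counts. Replicate 1 was the highest, by little. P2rx7 exceeded P2rx4 in replicates 1 and 2 and was below it in replicate 3, and the mean log2 ratio of P2rx7 to P2rx4 was 0.04 ± 0.15 (SD, n = 3), smaller than its spread. The second quantification gave a log2 ratio of 0.06 ± 0.02.

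The closeness of these gene totals did not extend to their protein-coding transcripts. Counting those alone, P2rx4 had 7.74, 7.15 and 6.75 TPM against 16.8, 17.6 and 14.1 TPM for P2rx7, and every P2rx7 value lay above every P2rx4 value. The log2 ratio was then 1.16 ± 0.12 (SD, n = 3), a 2.23-fold difference. The highest P2rx4 entry in both quantifications was P2rx4-208, a single exon of 3895 bases annotated as a retained intron (chr5:122707569-122711463). It had 5.52, 5.81 and 6.32 TPM, 35.2% of the gene, and 357, 340 and 408 estimated counts, 61.2% of the gene's counts. Coding P2rx4-202 came next with 5.02, 4.93 and 3.82 TPM, and retained-intron P2rx4-203 held 10.4% on average. P2rx4-202 lacks exon 6 of P2rx4-201, codes for 361 rather than 388 amino acids and has 0 bases that are in no other entry. P2rx4-201 was at 0.80, 1.32 and 0.87 TPM, or 6.0% of the gene.

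P2rx4-208 reads through the end of exon 1 and covers 3676 bases of the 6611-base intron 1, or 55.6% of it. The 60 bases around that exon end (chr5:122707758-122707817, plus strand, the last 30 of the exon and 30 of the intron, with the GT that starts the intron in capitals) are shown beside the same stretch of Nt5e-202 (chr9:88328001-88328060), which runs on into intron 1 of Nt5e.
P2rx4-208: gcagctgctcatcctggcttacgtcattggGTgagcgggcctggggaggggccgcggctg
Nt5e-202: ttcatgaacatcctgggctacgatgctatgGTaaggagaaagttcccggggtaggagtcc

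P2rx7 and P2rx4 carried nearly all P2X receptor transcripts. Together they made up 97.7%, 99.0% and 97.5% of the summed TPM of the 7 P2X genes in replicates 1, 2 and 3, and 97.2% ± 0.10 in the second quantification (SD, n = 3). P2rx1 was next at 0.25, 0.26 and 0.38 TPM, and P2rx6 was listed at 0. Of 12 P2Y and related receptors, which are coupled to G proteins, 5 were at 1 TPM or more in every library. P2ry10 led them at 53.0, 39.4 and 43.2 TPM, followed by Gpr174 at 18.3 ± 2.19 and Gpr171 at 17.0 ± 1.24 TPM (SD, n = 3). The others of the 5 were P2ry10b and Gpr34. P2ry1, P2ry2, P2ry6, P2ry12, P2ry13 and P2ry14 stayed below 1 TPM in every library, and P2ry4 was listed at 0. In the second quantification P2ry6 was at 1.28, 1.16 and 1.49 TPM and P2ry14 at 1.07, 1.30 and 0.41 TPM. Which of the 12 receptors sense nucleotides in these cells was not tested.

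Art2b encodes the GPI-anchored ADP-ribosyltransferase ART2.2. The gene (ENSMUSG00000030651.5) lies on the minus strand at chr7:101576970-101585600. Art2b was at 26.3, 24.3 and 19.7 TPM, a mean of 23.4 ± 3.42 TPM (SD, n = 3), from 808, 642 and 628 estimated counts. Replicate 1 was the highest and replicate 3 the lowest, as it was in the second quantification with 32.9, 28.2 and 24.1 TPM. Both annotated transcripts are coding, and by TPM they shared the gene almost evenly: Art2b-202 carried 52.7% ± 4.18 and Art2b-201 the rest. By estimated counts Art2b-202 held 79.6%. Art2b-201 is annotated with 870 bases against 2819, and only 9 of its bases are in no other entry. How well reads of these transcripts can be told apart was not tested. Art2b-202 and Art2b-201 code for 286 and 289 amino acids.

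C57BL/6 mice lack a working copy of the sister enzyme ART2.1, and the mm10 annotation lists its gene, Art2a-ps, as a polymorphic pseudogene. Over 856 aligned bases of the 858-base coding sequence of Art2b, the Art2a-ps transcript was 87.7% identical. Its first in-frame stop falls at codon 161 by the substitution C481T, with positions counted from 1 at the A of the Art2b start codon and the Art2b base given first. The 63 bases around it are shown on the minus strand, with that codon in capitals (Art2b at chr7:101580178-101580240, Art2a-ps at chr7:101554817-101554879).
Art2b: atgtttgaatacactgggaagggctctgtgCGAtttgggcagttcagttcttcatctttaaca
Art2a-ps: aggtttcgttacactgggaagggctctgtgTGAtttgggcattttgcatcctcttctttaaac

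Art2a-ps was at 1.15, 1.22 and 1.13 TPM, and Art2b exceeded it by a log2 ratio of 4.32 ± 0.20 (SD, n = 3), or 20.0-fold on the mean log2 scale. The second quantification gave 4.77 ± 0.34. Of the 50-base words of Art2b-202, 5.06% also occur in Art2a-ps-201, and the deposited posterior SD of the Art2b count was under 0.15% of the count in every library. These sequences are those of the C57BL/6-based reference. The CAST/EiJ alleles were not analysed here, so reads of either parental copy could be assigned only to these reference sequences. How completely reads of the CAST/EiJ copies were assigned was not tested.

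CD38, an ecto-enzyme that hydrolyses NAD and forms cyclic ADP-ribose, had the lowest level of the 10 genes. Cd38 (ENSMUSG00000029084.5, plus strand, chr5:43868553-43912375) was at 2.25, 1.90 and 1.41 TPM, a mean of 1.85 ± 0.42 TPM (SD, n = 3), from 95, 78 and 56 counts. It had the widest relative spread of the 10, with the highest library 1.60 times the lowest. Only 4.30% of the detected protein-coding genes had a lower mean. Coding Cd38-201 carried 71.6% ± 7.09 of its TPM, and retained-intron Cd38-202 the remaining 28.4%. Art2b exceeded Cd38 by a log2 ratio of 3.68 ± 0.13 (SD, n = 3), a 12.8-fold difference. In mice B cells and myeloid cells also express Cd38: the 13 B-cell genes summed to 22.7, 34.0 and 17.4 TPM and Lyz2 was at 17.6, 14.9 and 16.7 TPM in replicates 1 to 3, and the part of such cells in the Cd38 level was not tested.

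Art2b made up 80.0% ± 1.57 of the summed TPM of the 8 matched ADP-ribosyltransferase and NAD ecto-enzyme genes (SD, n = 3). Art4 followed at 2.45, 1.80 and 2.50 TPM, a range that overlapped that of Cd38, and Art1 was the lowest at 0.13, 0 and 0.09 TPM. Within cells, where NAD is made and used, Parp1 led at 26.0 ± 2.26 TPM, with Nadk at 18.2 ± 0.55 and Sirt1 at 15.9 ± 1.19 TPM, and Nmnat2 was the lowest at 0.86 ± 0.51 TPM (SD, n = 3).

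The enzymes of adenosine formation stood far apart. Nt5e encodes CD73, the GPI-anchored 5′-nucleotidase that converts AMP to adenosine (ENSMUSG00000032420.8, plus strand, chr9:88327197-88372092). Nt5e was at 21.4, 23.3 and 20.8 TPM, a mean of 21.8 ± 1.31 TPM (SD, n = 3), from 1300, 1254 and 1294 counts. It was the only member whose highest library was replicate 2, and its highest library was 1.12 times its lowest. Coding Nt5e-201 carried 71.9% ± 2.44 of the TPM. The retained-intron entries Nt5e-202 and Nt5e-203 held 12.3% and 13.3%, and Nt5e-202 alone had 131, 163 and 168 counts. That entry covers 3189 bases of intron 1, which is 13.2% of an intron of 24232 bases.

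Entpd1 encodes CD39, which hydrolyses ATP and ADP to AMP and is known on regulatory T cells and myeloid cells (ENSMUSG00000048120.16, plus strand, chr19:40612366-40741602). Entpd1 was at 3.20, 2.97 and 2.24 TPM, a mean of 2.80 ± 0.50 TPM (SD, n = 3). It rested on only 79, 53 and 72 counts. Every Entpd1 value lay below every Nt5e value, and the log2 ratio of Nt5e to Entpd1 was 2.98 ± 0.24, a 7.86-fold difference. With 3 libraries an exact test of such a ratio cannot pass 0.05, and the ratio is given with its SD alone.

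The size of that ratio differed between the quantifications and between sets of transcripts. In the second quantification Entpd1 was at 8.11, 5.66 and 6.23 TPM, and the log2 ratio was 2.10 ± 0.32. Counting protein-coding transcripts alone, Entpd1 was at 1.34, 1.12 and 1.38 TPM and the log2 ratio was 3.62 ± 0.20. The highest entry was coding Entpd1-204 in the first table, with 31.2% ± 9.34 of the TPM, but in the second quantification it was Entpd1-211, a noncoding transcript of 319 bases, with 46.9%. Entpd1-211 rested there on 9.10, 5.14 and 4.55 counts and had 0 counts in every library of the first table. Coding Entpd1-201 carried 15.9% in the first table, and the short entries Entpd1-206, Entpd1-207 and Entpd1-208 carried 14.5%, 12.8% and 22.4%. The deposited TPM of Entpd1 lay below its own deposited credibility bounds in all 3 libraries, 3.31 to 7.87, 3.15 to 8.11 and 2.74 to 6.83 TPM in replicates 1 to 3, whereas the other 9 genes lay within theirs in every library.

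In RNA from many cells, a gene expressed in few cells and one with little RNA per cell cannot be told apart. For Entpd1 the levels of other possible sources are therefore given beside it. Foxp3, which defines regulatory T cells, was at 8.55, 9.04 and 8.44 TPM, and the macrophage gene Adgre1 at 2.30, 0.91 and 1.32 TPM. Their part in the Entpd1 level was not tested.

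By mean TPM, Nt5e was the highest of the 16 genes listed as ecto-nucleotidases and held 22.8% ± 2.45 of the list's summed TPM (SD, n = 3). The list also holds Entpd4, Entpd5, Entpd6 and Entpd7, which are outside the surface-type group of Entpd genes named below. Acpp, a phosphatase that can also release adenosine from AMP, was at 20.0, 12.3 and 18.7 TPM. It was lowest in replicate 2, where Nt5e was highest, and the log2 ratio of Nt5e to Acpp was 0.39 ± 0.46, smaller than its spread. In the second quantification that log2 ratio was -0.15, 0.66 and -0.13, so Acpp exceeded Nt5e in replicates 1 and 3. Entpd5 followed at 14.5 ± 0.75 TPM (SD, n = 3). Entpd2, Entpd3 and Enpp3 were listed at 0, so that Entpd1 was the only member of the surface-type group of Entpd1, Entpd2, Entpd3 and Entpd8 at 1 TPM or more, with Entpd8 at 0.04, 0.09 and 0 TPM.

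Adora2a was the adenosine receptor of these cells by transcript level. Its product couples to stimulatory G protein and raises cAMP, which restrains T-cell receptor signalling. Adora2a (ENSMUSG00000020178.6, plus strand, chr10:75316877-75334784) was at 10.1, 9.20 and 7.94 TPM, a mean of 9.07 ± 1.07 TPM (SD, n = 3), from 341, 301 and 269 counts. Replicate 3 was the lowest. In the second quantification the levels were 12.7, 9.27 and 9.54 TPM, with replicate 2 the lowest. All 4 annotated transcripts are coding, and Adora2a-201, the 1 with the full frame of 410 codons, carried 77.2% ± 3.72 of the TPM, with Adora2a-204 at 15.3%.

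Adora1 and Adora2b had 0 counts in all 3 libraries and in both quantifications, a result that allows a true mean of up to 3 counts per library. Adora3 was at 0, 0 and 0.05 TPM in the first table but had a mean of 0.88 TPM in the second quantification. Adora2a thus held 99.8% ± 0.36 of the summed TPM of the 4 receptors in the first table and 92.3% ± 0.75 in the second quantification (SD, n = 3). Downstream of it, 16 of 19 cAMP signalling genes were at 1 TPM or more in every library. Gnas, the stimulatory G protein subunit, led at 143.9 ± 6.81 TPM, then Csk, the kinase that restrains Lck, at 122.6 ± 6.85 and Prkar1a at 85.8 ± 3.89 TPM, and Akap5 was the lowest at 0.33 ± 0.16 TPM (SD, n = 3).

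Adenosine is cleared by Ada and Pnp, whose inherited loss causes T-cell immunodeficiency in humans. Ada (ENSMUSG00000017697.3, minus strand, chr2:163726584-163750239) was at 5.30, 4.25 and 3.81 TPM, a mean of 4.45 ± 0.77 TPM (SD, n = 3), from 128, 95 and 103 counts. Coding Ada-201 carried 91.0% ± 7.90 of it. Adk, the kinase that turns adenosine back into AMP, was at 21.6, 10.6 and 19.9 TPM. Ada lay below Adk in every library, by a log2 ratio of -1.91 ± 0.54 (SD, n = 3), and Adk was 3.76-fold higher on the mean log2 scale.

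Pnp converts inosine and guanosine to their bases (ENSMUSG00000115338.2, plus strand, chr14:50931082-50965237). It was at 10.1, 7.69 and 8.50 TPM, a mean of 8.76 ± 1.22 TPM (SD, n = 3), from 258, 212 and 230 estimated counts. Replicate 1 was the highest. The second quantification put it at 18.0, 14.6 and 16.7 TPM, 1.88 times the first on average, and only Entpd1 among the 10 had a larger ratio, 2.38. The leading transcript changed too: Pnp-202 held 53.0% ± 7.38 in the first table, whereas Pnp-203 led the second quantification with 39.4% and had 0 counts in every library of the first. Pnp-201 held 29.7% and retained-intron Pnp-205 17.4% in the first table.

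Pnp is also the member whose reads are hardest to place. The annotation has Pnp2 and Gm49342 on the same strand within its span, and 34.1% of the 50-base words of Pnp-202 also occur in Pnp2-201. The deposited posterior SD of the Pnp count was 14.1, 13.1 and 12.4 counts, up to 6.19% of the count, against at most 0.199% for the other 9 genes. Pnp2 was at 0.43, 0.35 and 0.12 TPM and Gm49342 at 3.17, 5.39 and 2.99 TPM.

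Among the 22 genes of intracellular purine salvage and breakdown, 18 were at 1 TPM or more in every library, and Ada was the second and Pnp the seventh from the bottom of those 18 by mean TPM. The highest were Samhd1, a dNTP hydrolase, at 141.2 ± 5.05 TPM, Nt5c at 47.1 ± 3.48 and Nt5c3b at 41.0 ± 0.99 TPM (SD, n = 3), and Nt5c1a was listed at 0. The nucleoside transporters included Slc28a2 at 44.0 ± 2.40, Slc29a1 at 11.98 ± 1.30 and Slc29a3 at 7.17 ± 1.12 TPM, with Slc28a3 the lowest at 0.01, 0.03 and 0 TPM.

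Dpp4 had the highest level of the 10 genes. It encodes CD26, a surface serine peptidase of T cells that in humans also anchors adenosine deaminase (ENSMUSG00000035000.8, minus strand, chr2:62330073-62412231). Dpp4 was at 42.1, 34.1 and 38.2 TPM, a mean of 38.1 ± 4.03 TPM (SD, n = 3), from 1473, 1244 and 1411 counts. Replicate 2 was the lowest, and it was the lowest in the second quantification as well, with 57.2, 43.7 and 50.9 TPM. The top place was not held by its coding transcript: Dpp4-201 had 13.9, 13.3 and 13.5 TPM, or 35.8% ± 3.06 of the gene's TPM. That transcript of 5268 bases and 26 exons nevertheless had 84.2% of the gene's counts. Short retained-intron entries (Dpp4-203, Dpp4-204 and Dpp4-206) carried 46.3% of the TPM and processed transcripts, Dpp4-202 the larger at 13.03%, carried 17.9%. Dpp4-206, of 288 bases, was at 9.00, 1.14 and 4.90 TPM from 28.8, 3.29 and 15.7 counts, and so moved more between libraries than the coding transcript.

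**Figure D3:**
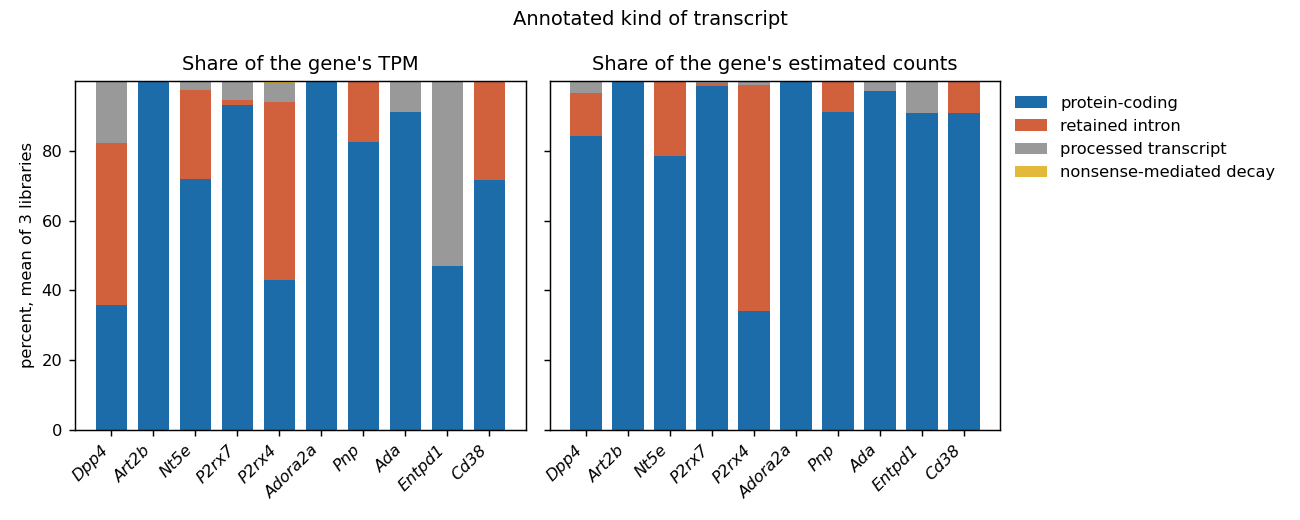
Share of each gene's TPM (left) and estimated counts (right) by the annotated kind of transcript, as the mean percent of 3 libraries, with genes ordered by mean TPM. Protein-coding transcripts hold 35.8% of the Dpp4 TPM but 84.2% of its counts, whereas for P2rx4 they hold 43.0% of the TPM and 34.1% of the counts.

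The other genes of the Dpp4 list included Dpp3 at 29.4 ± 3.22, Dpp8 at 27.3 ± 1.29 and Dpp9 at 18.2 ± 0.47 TPM (SD, n = 3), and Cav1 was the lowest at 0.07, 0 and 0.02 TPM. Dpp4 held 31.3% ± 1.66 of the list's summed TPM.

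Ordered by mean TPM of the gene table, the 10 genes were Dpp4, Art2b, Nt5e, P2rx7, P2rx4, Adora2a, Pnp, Ada, Entpd1 and Cd38. Neighbours whose ranges over the 3 libraries overlapped were Art2b and Nt5e, P2rx7 and P2rx4, Adora2a and Pnp, and Entpd1 and Cd38. All 10 were at 1 TPM or more in every library, and 5 of them, from Dpp4 down to P2rx4, at 10 TPM or more. The second quantification moved Pnp above Adora2a and Entpd1 above Ada, and the ranges of Entpd1 and Ada overlapped there. With protein-coding transcripts alone the order was Art2b, P2rx7, Nt5e, Dpp4, Adora2a, Pnp, P2rx4, Ada, Cd38 and Entpd1. Dpp4 thus fell from the highest place to the fourth and P2rx4 from the fifth to the seventh.

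**Figure D4:**
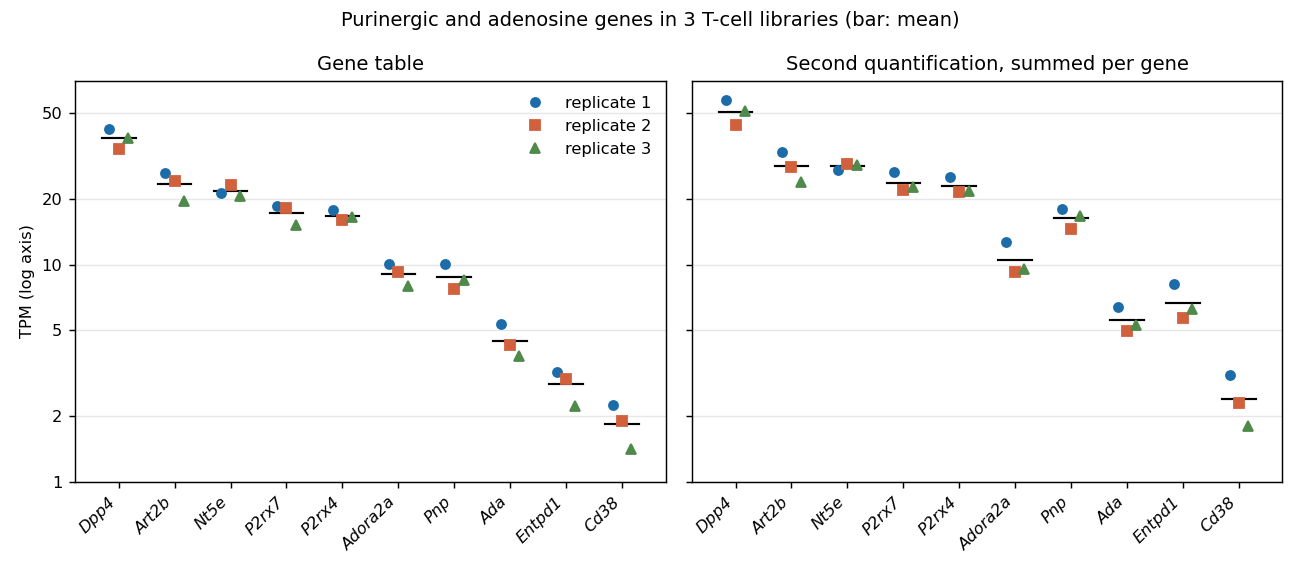
TPM of the 10 genes (log axis) in replicates 1 (circles), 2 (squares) and 3 (triangles), with bars at the mean, in the gene table (left) and the second quantification summed per gene (right). Dpp4 is highest at 34.1 to 42.1 TPM and Cd38 lowest at 1.41 to 2.25 TPM in the gene table, and Pnp and Entpd1 shift up most in the second quantification.

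Between the libraries, none of the 10 genes varied beyond the spread usual for its abundance. In edgeR's quasi-likelihood fit with Benjamini-Hochberg adjustment over all genes tested, 75 of 13280 genes were called at 0.05, which is 0.565%, and 0 of the 10 members. No member reached an unadjusted p of 0.05 either: the lowest were 0.0876 for P2rx7 and 0.0993 for Art2b, with adjusted p of 0.964 and 0.973 by the same edgeR test. By DESeq2, 0 members were marked as dispersion outliers. The median unadjusted p of the 10 members was 0.43, beside 0.50 over all genes tested. The share called among all genes is so low that 0 of 10 says little about these genes in particular.

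Replicate 1 was the highest library for 9 of the 10 members by TPM, and replicate 3 the lowest for 7. Replicate 1 was the highest for 50.2% of the detected protein-coding genes as well, and replicate 3 the lowest for 46.8%. In the second quantification replicate 1 was again the highest for 9 members, but the lowest was replicate 2 for 7 members and replicate 3 for 2. On counts scaled by TMM, a normalization by the trimmed mean of gene ratios, replicate 1 was the highest for 5 members. Replicates 2 and 3 were each the lowest for 4 on that scale. Replicate 1 thus remained the most frequent highest library on that scale, by a smaller margin.

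The wider pathway behaved likewise. Of 125 matched pathway genes that are not members, 79 were at 1 TPM or more in every library and 90 could be tested, and edgeR called 0 of them at an adjusted p of 0.05, with 6 at an unadjusted p below 0.05. The lowest adjusted p was 0.153, for Adk, at 10.6 TPM in replicate 2 against 21.6 and 19.9 TPM in replicates 1 and 3. P2ry10 (adjusted p = 0.282) and Acpp (adjusted p = 0.470), both lowest in replicate 2, did not pass the edgeR test. Of the marker genes, edgeR called 1, Hba-a2, a globin gene of red cells, at 11.5, 26.1 and 8.10 TPM (adjusted p = 0.032 by edgeR). Replicate 2, where this red-cell gene and the sum of the B-cell genes were highest, was the highest library for 1 member by TPM, Nt5e, and for 3 members by TMM-scaled counts, P2rx7, Adora2a and Nt5e.

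Genes that act upstream and downstream of the P2X7 receptor were also listed. Of 10 ATP release channel and vesicular transporter genes, 6 were at 1 TPM or more in every library. Lrrc8c at 36.6 ± 1.44, Slc17a9, which loads ATP into vesicles, at 32.1 ± 3.50 and Lrrc8a at 21.3 ± 0.53 TPM led (SD, n = 3). The pannexin gene Panx1 was at 26.0, 20.2 and 16.3 TPM, and Panx3 was listed at 0. Of 12 genes downstream of P2X7, 9 were at that level. Gsdmd, a pore-forming protein of inflammatory cell death, was at 46.9 ± 3.02 TPM, and Il1b was the lowest at 0.37 ± 0.06 TPM (SD, n = 3).

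**Figure D5:**
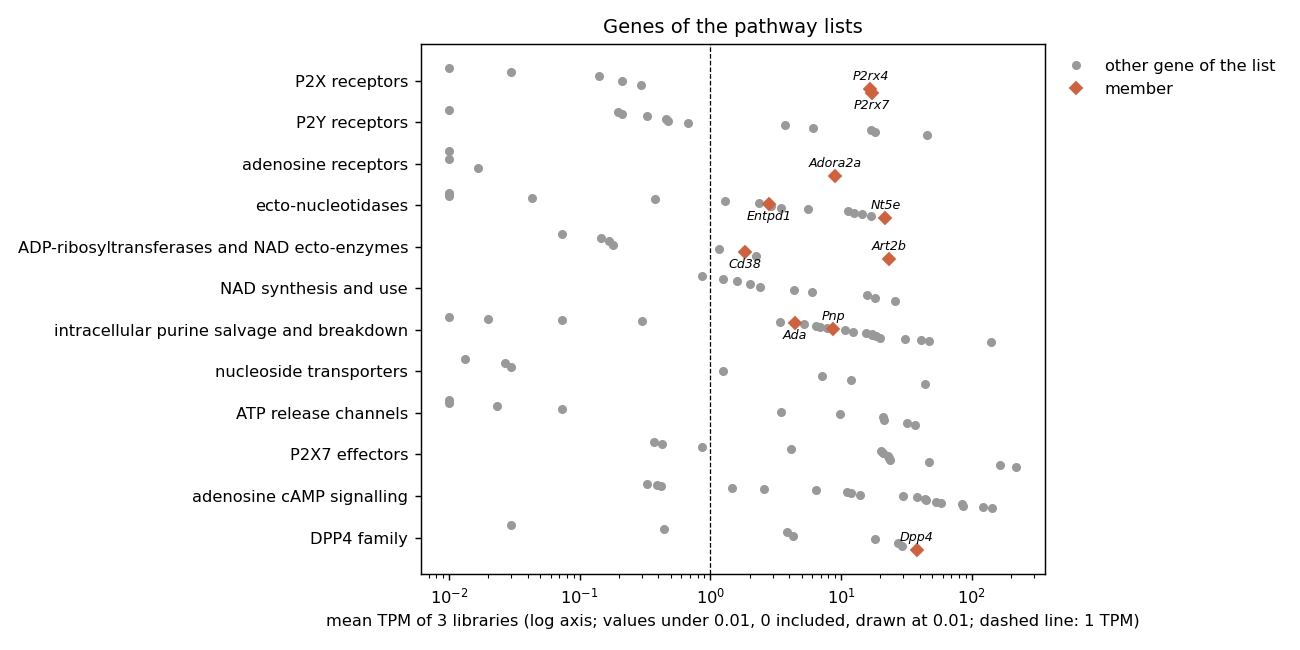
Mean TPM over 3 libraries (log axis) of every gene of the 12 pathway lists, with the 10 members as labelled diamonds and other genes as grey points, values under 0.01 drawn at 0.01 and a dashed line at 1 TPM. P2rx7 and P2rx4 (17.3 and 16.8 TPM) are alone above the line among P2X receptors, as is Adora2a (9.07 TPM) among adenosine receptors.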

How the data were processed

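The authors deposited a gene table and a first transcript table with expected (estimated) counts, TPM, FPKM, posterior means, a posterior SD (used here as a score of uncertainty) and TPM credibility bounds (read as a signal), per the file headers. The deposited READMEs state transcriptome alignments to mm10 with GENCODE M21. Their aligner and quantifier were not given in the sources used here. Another deposited transcript table holds estimated counts and TPM that its README describes as made from reads with an index of that annotation; it was summed per gene as the second quantification. Reads of either parental allele could be assigned only to this 1 reference.

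The members, gene lists and tests were chosen with earlier results of these data known. Of 136 listed pathway symbols, 135 were matched by symbol. Named pathway genes are the 3 highest and the lowest of each list, and any that passed the test. Adgre1, Foxp3, Adk, Mir8115, Gm49342, Adora1, Entpd3, Enpp3, Entpd8, Dpp9, Pnp2 and Art2a-ps were added after their values were seen. So were Panx1, P2ry10b, Gpr34, P2ry1, P2ry2, P2ry6, P2ry12, P2ry13 and P2ry14. Some genes that this rule would name are not reported here. Spread was tested in edgeR 4.0.16 (R 4.3.3) with an intercept-only quasi-likelihood fit on rounded estimated counts (filterByExpr, TMM, robust), the residual dispersion of each gene being set against the abundance trend by an F test, adjusted over all genes at 0.05. When this comparison of the 3 libraries was tested on simulated data (13579 genes), 96 of 100 genes with a 2-fold change in 1 library were recovered, as were 100 of 100 with a 4-fold change, and 6 of 202 calls were false. Every simulated gene had the same dispersion, and only genes above a minimum mean count were changed. Real genes can differ in dispersion at like abundance, so these rates need not hold for the data. Pairs of libraries differed beyond sampling noise, with a chi-square per degree of freedom of 4.20 to 5.25. The 3 counts that a count of 0 allows are 1.78e-05%, 2.00e-05% and 1.85e-05% of the libraries' totals and cover counting error only. DESeq2 1.42.0 and Biopython 1.88 gave alternatives and the Art2 alignment. Sequences came from the annotation's transcript file, and coordinates are 1-based on mm10.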

Additional observations from a re-analysis of the deposited data

How the results depend on the processing

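No member was called variable under any alternative run: the second quantification, DESeq2 size factors, no filter on low counts, a mean count of at least 100 (8 members tested), a non-robust fit, DESeq2's dispersion outliers, and each library left out. The number of all genes called ranged from 28 with the non-robust fit to 303 without a filter, and the lowest adjusted p of a member by edgeR from 0.741 to 0.996. All 10 members stayed at 1 TPM or more under each value type and with each library left out (10 to 10), and 5 reached a threshold of 10 TPM. The share of P2rx7-203 was 54.7% in the second quantification, 43.8% by posterior mean TPM, 75.2% by estimated counts and 52.3% among protein-coding entries, and 48.4% to 48.9% with a library left out. The log2 ratio of P2rx7 to P2rx4 was 0.57 by TMM-scaled counts (CPM) and 1.16 by protein-coding entries, and -0.03 to 0.12 with a library left out; it is -0.03 without replicate 2. The log2 ratio of Nt5e to Entpd1 was 2.10 in the second quantification, 2.04 by posterior mean TPM, 4.26 by CPM, which takes no account of length, 2.59 with 1 TPM added and 3.62 by protein-coding entries, and 2.86 to 3.09 with a library left out. Mean levels rose beyond 1 SD for 10 of 10 members in the second quantification. The rise was not limited to the members. The summed TPM of the T-cell core genes went from 3476, 3428 and 3205 to 4511, 4147 and 4055 in replicates 1 to 3. The share of all genes that rose was not counted. By posterior mean TPM the level rose beyond 1 SD for 1 member, Entpd1 (5.19 TPM). By protein-coding entries it fell beyond 1 SD for 6. The causes of these shifts were not tested. Depth limits Entpd1 and Cd38, with under 100 counts in every library, and Ada, with 95 in replicate 2. No paired analysis was possible because the libraries form 1 group.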
